A study of Homo sapiens with 16 samples.

Results

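The genes described here are 38 genes of the NRF2 pathway and of antioxidant defence, chosen by gene symbol and measured by RNA sequencing in DU145, a human prostate cancer cell line. All 38 were found among the 64792 gene identifiers of the count table, and 34 of them had enough reads to be tested, among 14690 tested genes. The libraries came from cells given lactate together with I-BET762, cells given lactate, cells given I-BET762, and control cells, with 4 replicates in each group and 16 libraries in all. I-BET762 is an inhibitor of BET proteins: it occupies the bromodomains with which they read acetylated histones and help to recruit the transcription machinery. The labels give neither dose nor duration for the treatments, and no genetic change beyond those of the line itself. They call the replicates independent without saying whether each was a separate culture, so p-values measure the spread between these libraries. A single cell line was used. For the 4 libraries of the double treatment the cell line field carries other line numbers than the DU145 of the titles, and the titles were followed.

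NRF2, the product of NFE2L2, is the main transcription factor of the response to oxidants and electrophiles. KEAP1 binds it in the cytoplasm and delivers it to a ubiquitin ligase. Oxidants and electrophiles modify cysteines of KEAP1, after which NRF2 accumulates, pairs with a small MAF protein such as MAFG and binds antioxidant response elements in the DNA. Its textbook targets make glutathione (GCLC, GCLM), return glutathione and thioredoxin to their reduced forms (GSR, TXNRD1), reduce quinones (NQO1), break down heme (HMOX1), store iron (FTH1, FTL) and export conjugates (ABCC1, ABCC2, ABCC3). Low KEAP1 expression and high NRF2 activity have been described for DU145.

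Stretches around 4 start sites are printed to show where the core of the antioxidant response element, TGACNNNGC, stands in members that were lower with lactate (TXNRD1, NQO1) and in members that did not pass that test (GCLM, GSTP1). RefSeq (GRCh38.p14) gave promoter windows for 28 of the 38 members. The core stood on either strand in the windows of 7 of these members (25.0%), namely EPHX1, GCLM, GPX2, GSTP1, KEAP1, PIR and TXNRD1, against 4384 of 27305 genes with a window (16.1%). The stretches below run 5′ to 3′ along the gene's own strand, from 150 bases before the start site to 10 bases after it, with each match in capitals. A match on the opposite strand is shown in capitals where its reverse complement stands. TXNRD1, at chr12:104215629-104215788 on the plus strand, has matches on both strands in this stretch. A further TXNRD1 start site, with its stretch at chr12:104286882-104287041, is not printed and holds 1 match. GCLM is at chr1:93909421-93909580 on the minus strand and GSTP1 at chr11:67583662-67583821 on the plus strand. NQO1 is at chr16:69726551-69726710 on the minus strand, with no match in its stretch.
TXNRD1: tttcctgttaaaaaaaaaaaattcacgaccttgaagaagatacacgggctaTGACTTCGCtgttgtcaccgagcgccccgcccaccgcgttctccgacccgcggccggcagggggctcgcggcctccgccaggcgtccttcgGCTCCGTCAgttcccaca
GCLM: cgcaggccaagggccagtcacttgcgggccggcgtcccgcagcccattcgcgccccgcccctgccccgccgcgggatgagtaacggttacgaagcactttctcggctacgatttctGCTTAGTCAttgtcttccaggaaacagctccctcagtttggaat
GSTP1: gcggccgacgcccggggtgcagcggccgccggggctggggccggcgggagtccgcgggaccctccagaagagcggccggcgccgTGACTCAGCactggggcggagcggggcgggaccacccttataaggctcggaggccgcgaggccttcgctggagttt
NQO1: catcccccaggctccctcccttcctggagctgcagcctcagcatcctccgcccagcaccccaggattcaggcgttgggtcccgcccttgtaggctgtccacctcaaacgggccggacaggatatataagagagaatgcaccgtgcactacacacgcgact

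Of the members with a window, 1 of the 5 that were lower with lactate (TXNRD1) and 0 of the 4 that were higher held a match, against 5 of the 16 other tested members. A match describes letters in a window and no match says only that these letters are absent from that window.

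Total counts per library were between 10711859 and 17173584, with the lowest in lactate replicate 1, and no 2 libraries held identical values. Levels are CPM, a gene's counts relative to the library total after TMM scaling. Epithelial markers were present in every library, with summed levels of 2299 to 3094 CPM with both treatments, 2098 to 3349.9 CPM with lactate, 2301 to 2494 CPM with I-BET762 and 1899.8 to 2458 CPM in control. Of 5 luminal prostate markers 1 was tested, and KLK3 was at or near 0 in every library. Their summed level was 28.9 to 31.1 CPM with both treatments and 26 to 36.8 CPM with lactate. With I-BET762 it was 28.4 to 33.9 CPM, and in control 31 to 41.4 CPM. Of 5 fibroblast markers COL1A1 alone was tested (log2 fold change 0.82 with lactate against control, adjusted p = 0.0247) and DCN was at 0 in all 16 libraries; their summed level was 5.16 to 9.63 CPM with both treatments, 4.88 to 8.32 CPM with lactate, 4.54 to 7.55 CPM with I-BET762 and 3.87 to 4.61 CPM in control. Their part in the results was not tested. Of 4 leukocyte markers 1 was tested, their sums stayed at or under 2.44 CPM, and CD3E was at 0 in every library. In such bulk libraries fewer cells of a type and less RNA per cell cannot be told apart. HEXIM1, known to rise under BET inhibitors, stood at 142, 157, 115 and 127 CPM with both treatments, 69.6, 86.0, 81.1 and 72.1 CPM with lactate, 149, 89.6, 113 and 114 CPM with I-BET762, and 75.7, 135, 70.0 and 77.4 CPM in control. The library labelled control replicate 2 was therefore within the range of the inhibitor-treated libraries, and the library labelled I-BET762 replicate 2 was the lowest of its group. In edgeR the log2 fold change of HEXIM1 was 0.38 with I-BET762 against control and 0.81 with both treatments against lactate, neither passing the test. With both treatments against control it was 0.59 (adjusted p = 0.0347). With those 2 libraries left out, I-BET762 against control gave 0.75 (adjusted p = 0.0535).

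Per kilobase of exon, the most abundant members in control cells were storage and redox proteins. FTL, the ferritin light chain, had 930.1 CPM per kilobase, the peroxiredoxin PRDX1 588, thioredoxin reductase TXNRD1 586, the ferritin heavy chain FTH1 497, the quinone reductase NQO1 345 and thioredoxin TXN 266. The regulators were lower, at 25.2 CPM per kilobase for NFE2L2, 24.2 for MAFG, 9.85 for KEAP1 and 4.37 for OSGIN1. At the low end of the tested members, ABCC2 had 0.825, ABCC1 0.326 and AKR1C1 0.0539 CPM per kilobase.

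The 4 members that were not tested had at most 12 counts in any library. GPX2, a glutathione peroxidase of the gut epithelium, had at most 3 counts, the sulfiredoxin gene SRXN1 at most 4, and the reductases AKR1C2 and AKR1B10 at most 7 and 12. Of the annotated exon bases of SRXN1, 85.0% are shared on the same strand with another annotated gene, and the sources used here do not say how the authors' counting treated shared bases. These low counts were therefore not read as absence of the SRXN1 transcript. Other annotated genes share 62.4% of the exon bases of FTH1 (BEST1), 24.9% of PRDX1 (MMACHC), 20.7% of SQSTM1 (MRNIP) and 17.7% of NQO1 on the opposite strand, and 23.5% of TRIM16 and 17.6% of NFE2L2 on the same strand, so these counts carry that uncertainty.

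**Figure D1:**
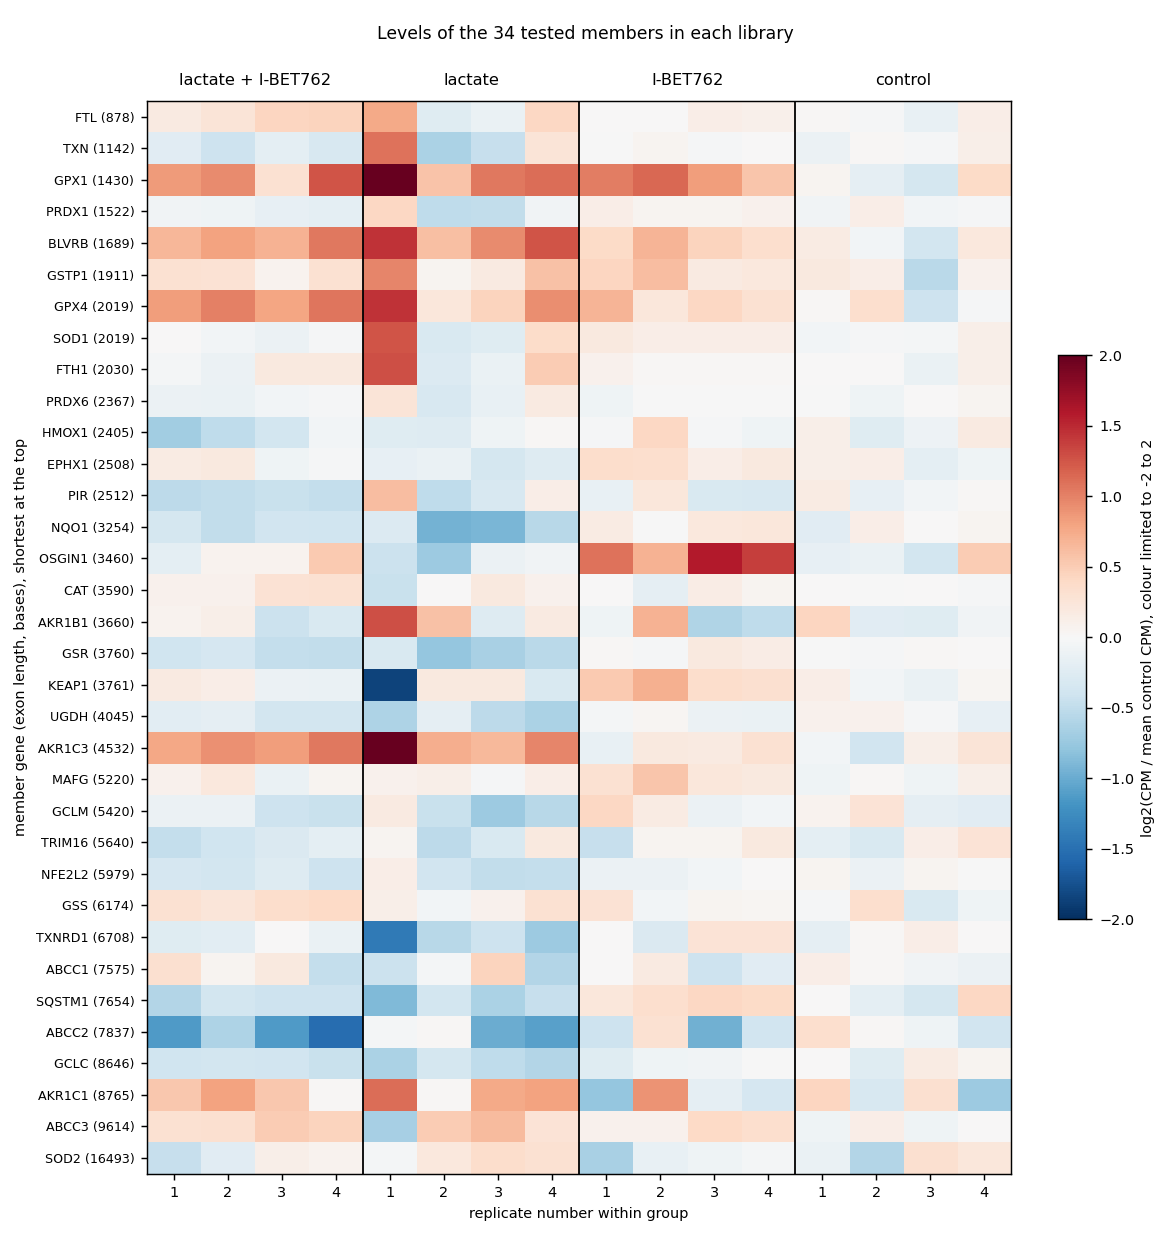
Level of each of the 34 tested members (rows, with exon length in bases, shortest at the top) in each of the 16 libraries (columns), as log2 of the CPM over the mean control CPM. Lactate replicate 1 differs from the other lactate libraries in many rows, with KEAP1 at 10.3 CPM and TXNRD1 at 1482 CPM.

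Lactate against control asks what lactate alone did to these genes. Here 6 members fell, namely NQO1, GSR, GCLC, TXNRD1, UGDH and SQSTM1. The 4 members that rose were the glutathione peroxidases GPX1 and GPX4, the biliverdin reductase BLVRB and the aldo-keto reductase AKR1C3. That makes 10 of the 34 tested members (29.4%), 4 higher and 6 lower, where 23.7% of all tested genes changed, 13.6% higher and 10.1% lower (edgeR's quasi-likelihood test, Benjamini-Hochberg adjusted p under 0.05). The members' share stood close to that of all genes. At an unadjusted p under 0.05 there were 13 members and 39.5% of all tested genes, and the groups did not overlap in 9 members and 20.0% of all tested genes. The median log2 fold change was 0 over the members and 0.03 over all tested genes. With counts corrected for GC content and exon length, 12 members changed, 2 higher and 10 lower, with 15.8% of all tested genes called.

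Among the regulators, NFE2L2 itself had 165, 115, 107 and 109 CPM in the 4 lactate libraries, against 156, 140.1, 156 and 150.4 CPM in control. Replicate 1 was above every control library and the other 3 lactate libraries were below them all. The log2 fold change was −0.28 (SE 0.12, adjusted p = 0.0876), and without lactate replicate 1 it was −0.45 (adjusted p = 0.000773). KEAP1, which restrains NRF2, had 10.3, 42.5, 42.3 and 29.9 CPM with lactate and 40.9, 35.5, 33.7 and 38.2 CPM in control. Its low lactate value rests on replicate 1: the log2 fold change was −0.24 (SE 0.27, adjusted p = 0.542) with that library and 0.05 without it.

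SQSTM1 encodes p62, an autophagy receptor that binds KEAP1 and is itself an NRF2 target. Its levels were 54.9, 78.6, 64.7 and 73.3 CPM with lactate, against 102, 88.6, 79.4 and 134 CPM in control. The groups did not overlap, though the highest lactate and the lowest control library were close, and the log2 fold change was −0.57 (SE 0.14, adjusted p = 0.0105). The other regulators did not pass the test. OSGIN1, an NRF2 target that restrains cell growth, was at −0.30, the small MAF partner MAFG at 0.07, the ubiquitin ligase TRIM16 at −0.12 and pirin, the product of PIR, at 0.04 on the log2 scale.

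In glutathione synthesis and recycling, 2 of 4 members fell. GCLC, the catalytic subunit of the rate-limiting enzyme, had 143, 175, 157 and 149 CPM with lactate and 223, 188, 250.1 and 232 CPM in control. Every lactate library was below every control library (log2 fold change −0.52, SE 0.10, adjusted p = 0.00257). GSR, which reduces oxidised glutathione, stood at 343, 245, 268 and 290 CPM with lactate, against 417, 416, 427 and 424 CPM in control, where its spread was small. The groups were apart, with a log2 fold change of −0.55 (SE 0.10, adjusted p = 0.00193). GCLM, the modifier subunit, had 156, 102, 83.3 and 94.5 CPM with lactate, against 145, 166, 122 and 118 CPM in control. Replicate 1 again lay highest, and the log2 fold change was −0.34 (SE 0.18, adjusted p = 0.163), or −0.57 (adjusted p = 0.00955) without it. Glutathione synthetase GSS was at 0.12 (adjusted p = 0.491).

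Of 4 tested thioredoxin system genes TXNRD1 alone passed the test. It had 1482, 2692, 2966 and 2371 CPM with lactate, against 3460, 4014, 4297 and 3952 CPM in control. The lactate libraries were all lower, replicate 1 most of all (log2 fold change −0.73, SE 0.18, adjusted p = 0.00914, and −0.56 without replicate 1). TXN, its substrate, varied widely with lactate, at 641, 196, 221 and 362 CPM, against 280, 309, 298 and 329.8 CPM in control, and its log2 fold change was 0.22 (adjusted p = 0.532), or −0.23 without replicate 1. PRDX1 and PRDX6, peroxiredoxins, had log2 fold changes of −0.11 and 0.01. Without lactate replicate 1, PRDX1 was at −0.35 (adjusted p = 0.0162).

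Of 5 tested peroxidases and dismutases 2 rose and 0 fell. GPX1, the cytosolic glutathione peroxidase, annotated in GENCODE 29 as a polymorphic pseudogene, had 75.1, 25.9, 36.5 and 38 CPM with lactate, against 18.2, 15.4, 13.7 and 22.7 CPM in control. All lactate libraries were above all control libraries (log2 fold change 1.32, SE 0.27, adjusted p = 0.00395). GPX4, which reduces lipid peroxides and so protects cells from ferroptosis, had 474, 202, 237 and 331 CPM with lactate and 178, 218, 131 and 170.2 CPM in control. Here the groups overlapped, since lactate replicate 2 was below control replicate 2, and the log2 fold change was 0.83 (SE 0.21, adjusted p = 0.0118). With the correction for GC content and exon length neither passed: GPX1 was at 0.51 (adjusted p = 0.0698) and GPX4 at 0.17 (adjusted p = 0.505). Without lactate replicate 1, GPX4 was at 0.55 (adjusted p = 0.0231) and GPX1 at 0.93 (adjusted p = 0.00495). Catalase, CAT, was at −0.01, SOD1 at 0.42 (−0.03 without that library) and SOD2 at 0.21, with no call.

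Among heme and iron genes, BLVRB rose and 3 did not pass. BLVRB, a reductase of biliverdin and flavins, had 67.2, 37.3, 47.6 and 58.5 CPM with lactate, against 27.4, 23.6, 19.0 and 28.4 CPM in control. Its lactate libraries were all higher, with a log2 fold change of 1.09 (SE 0.17, adjusted p = 0.000726). HMOX1, the inducible heme oxygenase, had 27.9, 27.6, 31.1 and 33.6 CPM with lactate and 35.7, 28.0, 30.9 and 37.6 CPM in control, overlapping ranges with a log2 fold change of −0.14 (adjusted p = 0.524). FTH1 and FTL had log2 fold changes of 0.49 and 0.25, and without lactate replicate 1 of 0.07 and 0.04. In FTH1 the 4 lactate libraries ran between 836 and 2472 CPM, the highest being replicate 1, against 925 to 1087 CPM in control.

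NQO1, the standard readout of NRF2 activity in cultured cells, had 934, 587, 597 and 767 CPM with lactate, against 962, 1238, 1124 and 1169 CPM in control. The groups did not overlap, with replicate 1 of each nearest the other (log2 fold change −0.64, SE 0.14, adjusted p = 0.00428). UGDH, which makes the UDP-glucuronic acid used in conjugation, had 308, 418, 328 and 305 CPM with lactate and 504, 498, 464 and 421 CPM in control. Lactate replicate 2 came close to the lowest control library, and the log2 fold change was −0.47 (SE 0.11, adjusted p = 0.00726). AKR1C3, which reduces ketosteroids including androgen precursors, had 26.8, 11.1, 10.6 and 13.2 CPM with lactate, against 6.48, 5.16, 7.36 and 8.01 CPM in control. Every lactate library was higher (log2 fold change 1.18, SE 0.25, adjusted p = 0.00413, and 0.78 without replicate 1). AKR1C3 has neighbours of similar sequence in AKR1C1 and AKR1C2, so some of its reads may be shared among them. Counts per library were 68 to 264 for AKR1C3, 4 to 14 for AKR1C1 and 0 to 7 for AKR1C2. GSTP1 was at 0.50 (adjusted p = 0.0608), EPHX1 at −0.22, AKR1B1 at 0.56 and AKR1C1 at 0.67, with no call. GSTP1 did pass with DESeq2 (adjusted p = 0.0454) and with no filter on low counts (0.0477). With GC content and exon length corrected GSTP1 was at −0.15 (adjusted p = 0.443). None of the 3 efflux pumps passed the test, with log2 fold changes of −0.45 to 0.27.

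**Figure D2:**
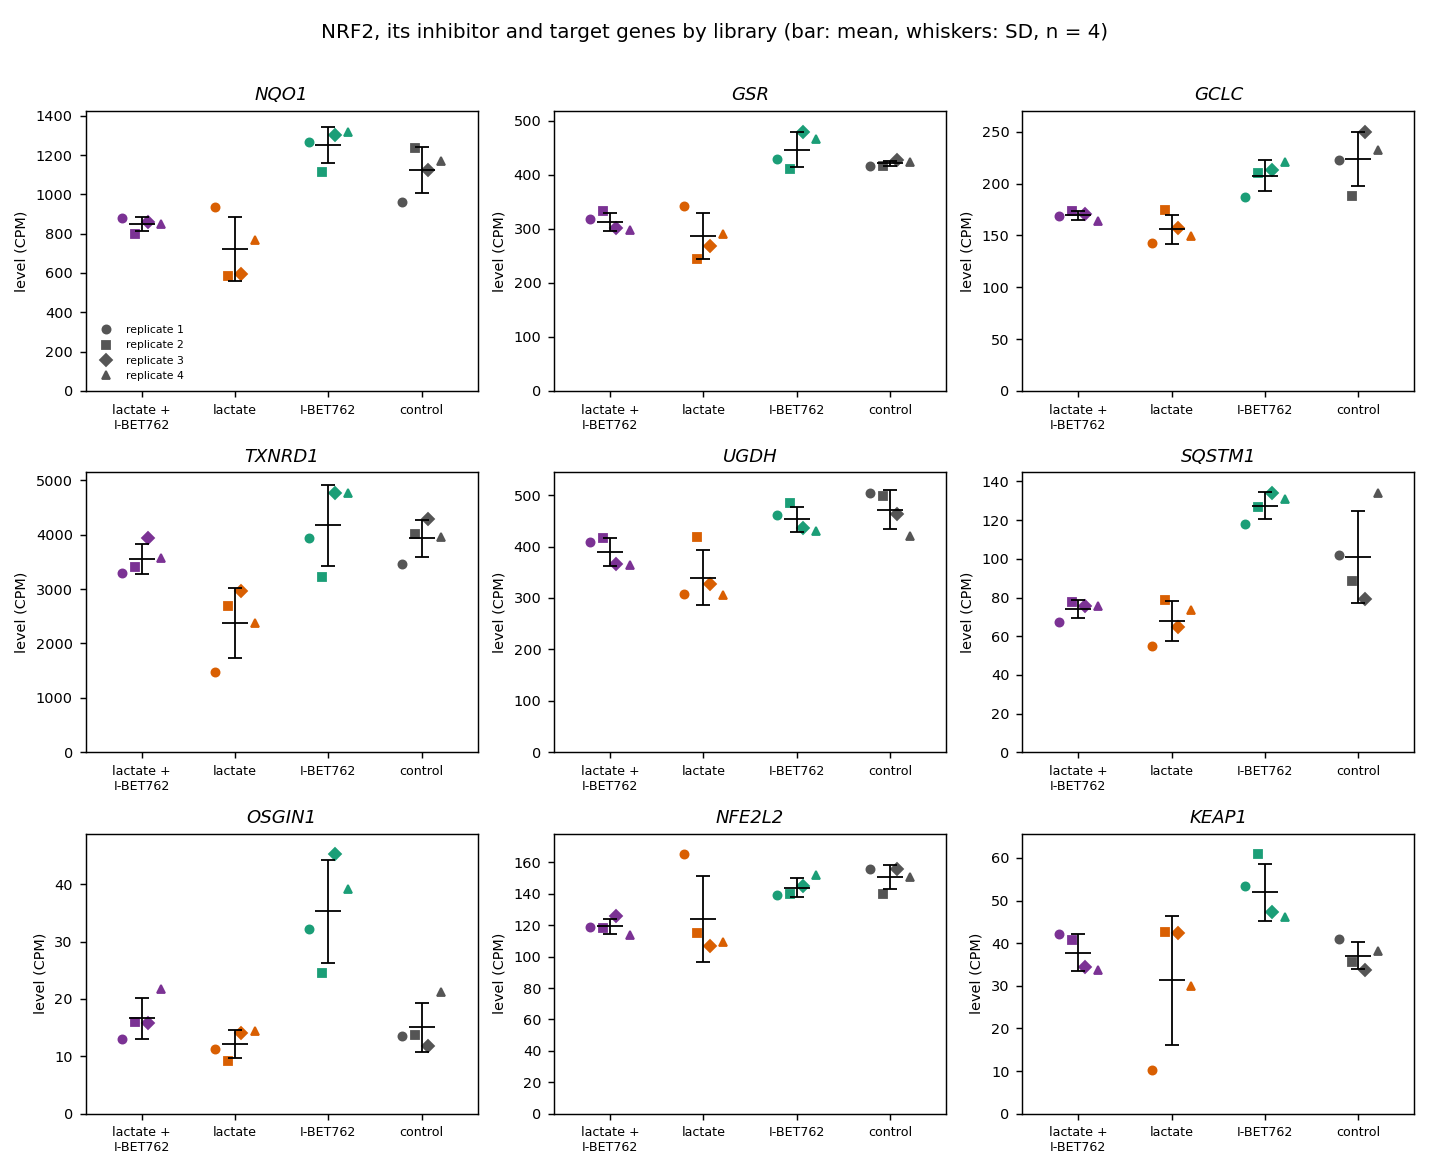
CPM of NQO1, GSR, GCLC, TXNRD1, UGDH, SQSTM1, OSGIN1, NFE2L2 and KEAP1 in each library of the 4 groups (bar: mean, whiskers: SD, n = 4). With lactate NQO1 averaged 721 ± 164 CPM, against 1123 ± 117 CPM in control, and OSGIN1 stood highest with I-BET762, at 35.3 ± 8.95 CPM, against 15.1 ± 4.25 CPM in control.

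**Figure D3:**
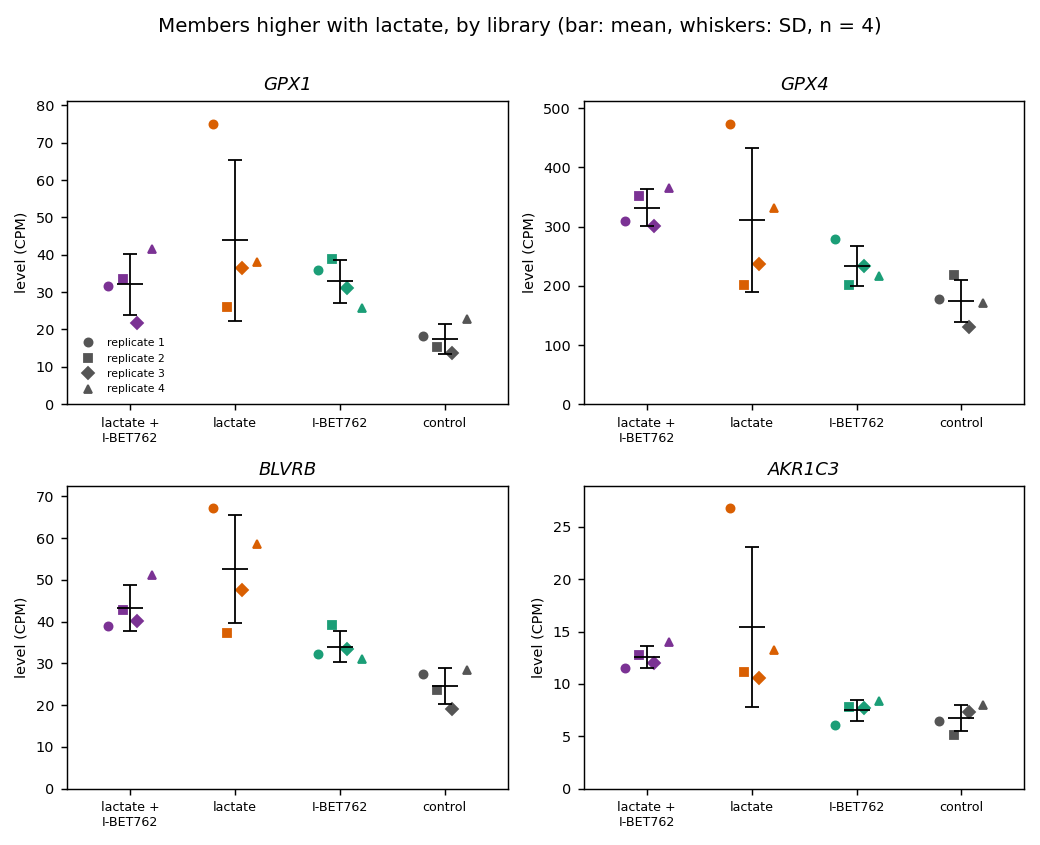
CPM of GPX1, GPX4, BLVRB and AKR1C3 in each library of the 4 groups (bar: mean, whiskers: SD, n = 4). The highest lactate library is replicate 1 in all 4 panels, and BLVRB averaged 52.6 ± 13.0 CPM with lactate, against 24.6 ± 4.24 CPM in control.

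Library properties moved with these changes. Across genes within a library, Spearman's rho of a gene's deviation from its mean with GC content was between −0.02 and 0.32 in lactate libraries and between −0.55 and −0.30 in control libraries, and rho with exon length was −0.40 and −0.42 in lactate replicates 1 and 4 but 0.24 and 0.10 in replicates 2 and 3. The 4 members that were higher had a median exon length of 1854 bases and a median GC content of 60.4%. In the 6 lower members these medians were 5376.5 bases and 45.4%, and in the 24 others 3625 bases and 53.2%. With offsets that correct for both, NQO1 was at −0.65, GSR at −0.54, SQSTM1 at −0.71, TXNRD1 at −0.57, GCLC at −0.31 and UGDH at −0.39, still lower by the test, as were OSGIN1 at −0.90, EPHX1 at −0.52, HMOX1 at −0.51 and PRDX1 at −0.36. AKR1C3 at 1.27 and BLVRB at 0.65 were still higher. Without lactate replicate 1, 14 members changed, 5 higher and 9 lower, with 25.4% of all tested genes called; the additions were NFE2L2, GCLM and PRDX1 (lower) and ABCC3 (higher, 0.48).

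Lactate was also given together with the inhibitor, and the comparison of both treatments with I-BET762 uses none of the libraries of lactate against control. In it, NQO1, GSR, SQSTM1 and OSGIN1 fell and no member rose. These 4 of 34 members (11.8%) compare with 4.90% of all tested genes called, 1.57% lower and 3.34% higher. At an unadjusted p under 0.05 there were 12 members and 19.6% of all tested genes, and the groups did not overlap in 16 members and 22.5% of all tested genes. The median log2 fold change was −0.21 over the members and 0 over all tested genes, and 23 of the 34 members had a negative one. Fitted on these groups alone, the test gave 17 members, 4 higher and 13 lower, with 18.0% of all tested genes called.

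NQO1 had 882, 799.6, 860.1 and 849.8 CPM with both treatments, against 1267, 1116, 1300.2 and 1319 CPM with I-BET762, clear of each other (log2 fold change −0.56, SE 0.13, adjusted p = 0.0236). GSR had 318, 333, 302 and 298 CPM with both, against 429, 411, 479.9 and 467 CPM with I-BET762 (−0.51, SE 0.10, adjusted p = 0.00879). SQSTM1 had 67.4, 77.9, 75.6 and 75.6 CPM with both, against 118, 127, 134 and 131 CPM with I-BET762 (−0.78, SE 0.14, adjusted p = 0.00518). In each of the 3 genes every library with both treatments was below every library with I-BET762. OSGIN1 had 13.1, 15.9, 15.8 and 21.7 CPM with both, against 32.2, 24.5, 45.2 and 39.2 CPM with I-BET762. Again the groups did not overlap, and the difference was the largest of the members in this comparison (−1.09, SE 0.22, adjusted p = 0.00992).

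Of the other members, GCLC had 169, 174, 171 and 164 CPM with both and 187, 209.9, 213 and 221 CPM with I-BET762, groups that were apart while the test did not pass (−0.30, SE 0.10, adjusted p = 0.10). NFE2L2 was at −0.27 (adjusted p = 0.202), KEAP1 at −0.46 (0.377), HMOX1 at −0.48 (0.0779), GCLM at −0.38 (0.242), TXNRD1 at −0.23 (0.514) and UGDH at −0.22 (0.282). HMOX1 and GCLC did pass with DESeq2 (adjusted p = 0.0313 and 0.0323) and with the groups fitted alone (0.0412 and 0.00979). With GC content and exon length corrected HMOX1 passed (−0.61, 0.00643) and GCLC did not (0.0761). On the other side, AKR1C3 had 11.5, 12.8, 12 and 14 CPM with both, against 6.08, 7.77, 7.66 and 8.39 CPM with I-BET762. All libraries with both were higher, and the log2 fold change was 0.75 (SE 0.24, adjusted p = 0.0885). GPX4 was at 0.51, BLVRB at 0.35 and GPX1 at −0.03 (adjusted p = 0.969).

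Set side by side, the 6 members that were lower with lactate alone all had a negative log2 fold change in the presence of the inhibitor, and NQO1, GSR and SQSTM1 passed the test in both comparisons. These 3 are 50% of the first list and 75% of the second. Over all tested genes, 171 were lower in both (1.16%), which is 11.5% of those lower with lactate alone and 74.3% of those lower with both against I-BET762. NQO1 missed the threshold in the comparison with I-BET762 when any 1 of I-BET762 replicates 1, 3 and 4 or replicates 2, 3 and 4 of both treatments was left out, keeping its call in 13 of 19 alternatives. Of the 4 members that were higher with lactate alone, 3 had a positive log2 fold change with the inhibitor present and 0 passed the test. AKR1C3 did pass there with DESeq2 (adjusted p = 0.0444), with no filter on low counts (0.0316), with GC content and exon length corrected (0.046, or 0.0432 with the replicate block) and with the groups fitted alone (0.00334). No member's interaction of the treatments passed the test (0 of 34 members and 0% of all tested genes in edgeR; DESeq2 and limma-voom also gave 0 members). At an unadjusted p under 0.05 the interaction gave 5 members and 6.09% of all tested genes. The interaction farthest from 0 was that of GPX1, at −1.35 (SE 0.38, adjusted p = 0.70), followed by OSGIN1 at −0.78 and BLVRB at −0.75 (each adjusted p = 0.70).

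**Figure D4:**
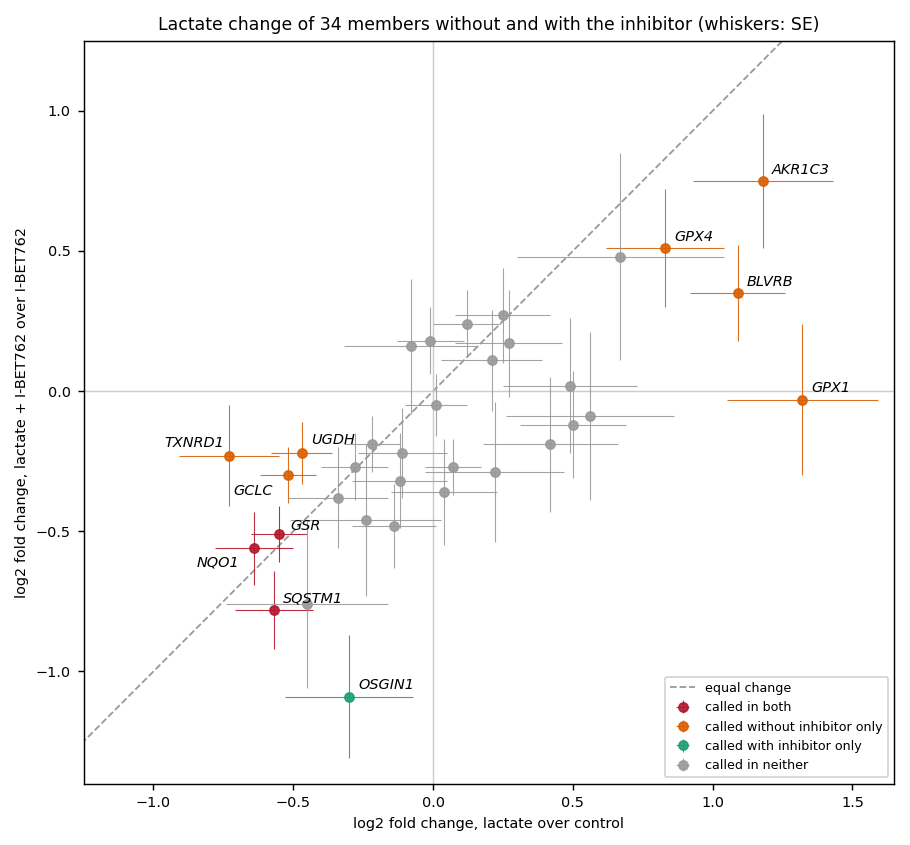
Log2 fold change of each of the 34 tested members with both treatments over I-BET762 (vertical) against lactate over control (horizontal), with SE as whiskers and the dashed line marking equal change. NQO1, GSR and SQSTM1 lie low on both axes and passed the test in both, OSGIN1 is lowest on the vertical axis at −1.09, and GPX1 lies at 1.32 on the horizontal and −0.03 on the vertical axis.

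I-BET762 against control asks what the inhibitor alone did. OSGIN1 was the single member called by edgeR's test on all 16 libraries. It had 32.2, 24.5, 45.2 and 39.2 CPM with I-BET762, against 13.5, 13.7, 11.8 and 21.3 CPM in control. Every inhibitor library was above every control library, with a log2 fold change of 1.22 (SE 0.22, adjusted p = 0.0473). That is 1 of 34 members (2.94%), with 0.442% of all tested genes called, all of them higher. At an unadjusted p under 0.05 there were 6 members and 11.4% of all tested genes. The adjusted p was close to the threshold and passed under 8 of 19 other settings, with log2 fold changes of 0.78 to 1.48; with GC content and exon length corrected it was 0.236. The call was lost without any 1 of control replicates 1, 2 and 3 or I-BET762 replicates 1, 2 and 3. With the library labelled I-BET762 replicate 2 and the one labelled control replicate 2 both left out, the log2 fold change was 1.32 (adjusted p = 0.0535). Of the exon bases of OSGIN1, 13.9% are shared with a neighbouring gene on the same strand.

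Without a call were GPX1, with 35.8, 38.8, 31.1 and 25.7 CPM with I-BET762, against 18.2, 15.4, 13.7 and 22.7 CPM in control, its libraries all higher with the inhibitor (0.91, SE 0.27, adjusted p = 0.117). Similarly apart were KEAP1 (53.5, 60.8, 47.3 and 46.2 CPM with I-BET762, against 40.9, 35.5, 33.7 and 38.2 CPM in control), with a log2 fold change of 0.49 (SE 0.27, adjusted p = 0.573), MAFG at 0.33 (adjusted p = 0.133) and BLVRB at 0.47 (adjusted p = 0.222). GPX1 did pass with DESeq2 (adjusted p = 0.036), with no filter on low counts (0.00314) and with the groups fitted alone (0.0268). MAFG passed with DESeq2 (0.0371) and KEAP1 with the groups fitted alone (0.032). Of the enzymes among the textbook targets, NQO1 was at 0.15, GSR at 0.09, GCLC at −0.10, GCLM at 0.12, TXNRD1 at 0.09 and HMOX1 at 0.09, with SEs of 0.10 to 0.18. FTH1 was at 0.04 and FTL at 0.06, and the pumps at −0.30 (ABCC2), −0.10 (ABCC1) and 0.23 (ABCC3). NFE2L2 was at −0.06 (SE 0.12). The groups did not overlap in 7 members, and in 10.8% of all tested genes.

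Both treatments against control gave 9 members, NQO1, GSR, GCLC, SQSTM1 and ABCC2 lower and GPX1, GPX4, BLVRB and AKR1C3 higher. This is 26.5% of the 34 tested members, where 20.7% of all tested genes changed, 13.0% higher and 7.72% lower. The groups did not overlap in 16 members and 31.2% of all tested genes. The comparison shares its control libraries with the 2 comparisons of single treatments, and its libraries of both treatments with the comparison against I-BET762, so its values are given side by side with theirs and not as further support. With GC content and exon length corrected 7 members changed, 2 higher and 5 lower, with 13.6% of all tested genes called. NQO1 (−0.34, adjusted p = 0.0661), GCLC (−0.26, 0.0526), GPX1 (0.12, 0.723) and GPX4 (0.33, 0.239) then missed the threshold, while HMOX1 (−0.70, 0.00184) and PIR (−0.50, 0.0388) were lower.

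The log2 fold changes were −0.41 for NQO1 (adjusted p = 0.0412), −0.43 for GSR (0.00755), −0.40 for GCLC (0.0103) and −0.45 for SQSTM1 (0.0347). GPX4 was at 0.93 (0.00611), BLVRB at 0.81 (0.0034), AKR1C3 at 0.89 (0.0171) and GPX1, whose groups overlapped, at 0.87 (0.0313). Of these 8 calls, those of GSR and BLVRB held in all 19 alternatives. The call was kept in 7 alternatives for NQO1, 10 for GPX1, 11 for SQSTM1, 16 for GCLC and 17 each for GPX4 and AKR1C3. NQO1 was lost without any 1 of control replicates 2, 3 and 4 or any 1 library of both treatments. SQSTM1 was lost without control replicate 1 or 4 or any 1 library of both treatments. GPX1 was lost without control replicate 1, 2 or 3 or replicate 1, 2 or 4 of both treatments, and AKR1C3 without replicate 4 of both. With the library labelled control replicate 2 and that labelled I-BET762 replicate 2 left out together, GPX1 (adjusted p = 0.0778) and AKR1C3 (0.0554) also missed the threshold, as did NQO1 (0.0998). In that setting HMOX1 (−0.46, adjusted p = 0.0339) and GSS (0.46, 0.0118) gained a call. BLVRB had 39.0, 42.7, 40.1 and 51.2 CPM with both treatments, against 27.4, 23.6, 19.0 and 28.4 CPM in control, with no overlap. GPX4 had 310, 351, 301 and 365 CPM with both, all above the 131 to 218 CPM of control. ABCC2, a pump for glutathione and glucuronide conjugates, had 2.96, 4.22, 2.96 and 2.25 CPM with both, against 8.20, 6.60, 6.11 and 4.96 CPM in control, the libraries with both all being lower (−1.06, SE 0.30, adjusted p = 0.02). Its counts were low, between 33 and 129 per library, and the call was lost without control replicate 1 or without replicate 4 of both treatments.

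TXNRD1 and UGDH, lower with lactate alone, did not pass with both treatments. TXNRD1 was at −0.15 (SE 0.18, adjusted p = 0.601), with 3299, 3406, 3934 and 3577 CPM, and UGDH at −0.28 (SE 0.11, adjusted p = 0.0801). UGDH did pass with DESeq2 (adjusted p = 0.0451) and with the groups fitted alone (0.0249). With GC content and exon length corrected UGDH did not (0.434). NFE2L2 had 119, 118, 126 and 114 CPM with both, against 156, 140.1, 156 and 150.4 CPM in control. Its libraries with both treatments were all lower, with a log2 fold change of −0.34 (SE 0.12, adjusted p = 0.0505) that just missed the threshold. NFE2L2 did pass with DESeq2 (adjusted p = 0.0353) and with the groups fitted alone (0.00433), but not with GC content and exon length corrected (0.258). OSGIN1 was at 0.14 (SE 0.22, adjusted p = 0.703), with 13.1 to 21.7 CPM with both and 11.8 to 21.3 CPM in control. KEAP1 was at 0.02 (0.964), GCLM at −0.26 (0.318) and HMOX1 at −0.39 (0.0777).

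Both treatments against lactate, which asks what the inhibitor did in the presence of lactate, gave no member by edgeR, DESeq2 or limma-voom, and edgeR called 0% of all tested genes. At an unadjusted p under 0.05 it gave 4 members, and 15.6% of all tested genes. TXNRD1 had 3299, 3406, 3934 and 3577 CPM with both, against 1482, 2692, 2966 and 2371 CPM with lactate. All libraries with both were higher, and the log2 fold change was 0.58 (SE 0.18, adjusted p = 0.228). EPHX1, a microsomal epoxide hydrolase, had 165, 168, 138 and 144 CPM with both and 131, 133, 115 and 123 CPM with lactate, also without overlap (0.29, SE 0.10, adjusted p = 0.269). The groups did not overlap in these 2 members, and in 7.60% of all tested genes. OSGIN1 was at 0.44 (SE 0.23, adjusted p = 0.338), PIR at −0.53 (0.274) and AKR1B1 at −0.68 (0.303). With no filter on low counts, TXNRD1 was at 0.61 (adjusted p = 0.0472) and was the 1 member called.

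**Figure D5:**
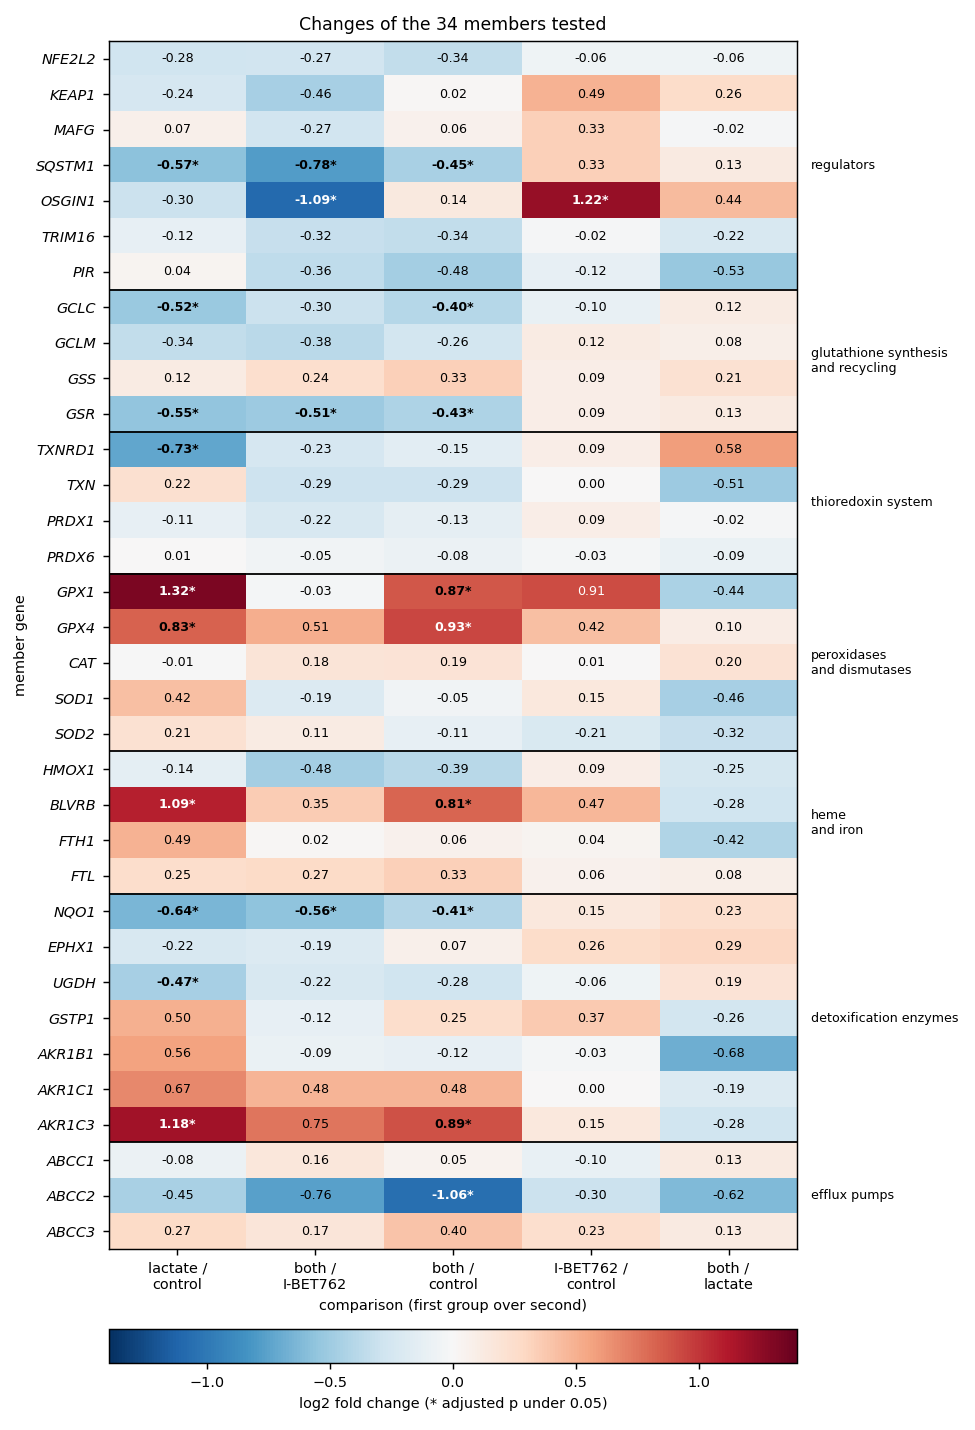
Log2 fold change of the 34 tested members (rows, by role) in 5 comparisons (columns, first group over second), with a star where the adjusted p was under 0.05. NQO1, GSR and SQSTM1 carry a star in the 3 comparisons with lactate in the first group and none in the second, and OSGIN1 is starred at 1.22 with I-BET762 over control and at −1.09 with both over I-BET762.

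Outside the members, the cystine transporter SLC7A11, the supplier of cysteine for glutathione and a textbook NRF2 and ATF4 target, also fell with lactate. It had 55.1, 59.0, 56.3 and 52.9 CPM with both treatments, 65.0, 89.8, 64.2 and 50.9 CPM with lactate, 98.3, 107, 123 and 135 CPM with I-BET762, and 124, 101, 152 and 129 CPM in control. Each library with lactate was below each library without it. The log2 fold change was −0.91 with lactate against control (SE 0.16, adjusted p = 0.00133), −1.05 with both against I-BET762 (SE 0.16, adjusted p = 0.00105) and −0.13 with I-BET762 against control (adjusted p = 0.872).

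SLC7A11 belongs to a list of 56 other genes of glutathione, thioredoxin, NADPH and heme metabolism and of NRF2 control, of which 49 were tested. With lactate against control 7 of them rose and 5 fell (24.5%, with 23.7% of all tested genes called). The 4 with the smallest p were SLC7A11, CCS, the copper chaperone of superoxide dismutase (1.17), the glutathione transferase GSTA4 (1.05) and the peroxiredoxin PRDX5 (1.04). With both treatments against control 2 rose, GSTA4 (1.01) and CCS (0.96), and 2 fell, SLC7A11 (−1.18) and the endoplasmic reticulum peroxidase GPX8 (−0.60). With both against I-BET762, GSTA4 rose and SLC7A11 fell. GSTA4 had 13.2, 13.6, 21 and 19.7 CPM with both, against 6.29, 6.38, 8.08 and 9.39 CPM with I-BET762, without overlap (1.16, SE 0.21, adjusted p = 0.00489). None of the 49 passed in I-BET762 against control in edgeR, with 3 at an unadjusted p under 0.05; the smallest p was that of MAFK, another small MAF partner of NRF2, at 1.00 (adjusted p = 0.0893). None passed in both against lactate or in the interaction, with 8 and 4 at an unadjusted p under 0.05.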

How the data were processed

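Polyadenylated RNA from 16 libraries was sequenced as single ends with a directional kit, per the labels' protocols. The authors deposited raw counts per Ensembl gene. The submitters' processing notes name the builds GRCh38.p12 and hg38, the aligner STAR (2.6.1c) and DESeq; for the counting program and its strand setting, not given in the sources used here, nothing was assumed, so reads of overlapping, antisense or near-identical genes could be split or dropped. Symbols named 58735 of the 64792 identifiers; coordinates and exon lengths are those of GENCODE 29 on GRCh38.

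Genes were kept by filterByExpr (minimum count 10, minimum total 15), and the 4 group means were fitted to all 16 libraries in edgeR 4.0.16 (R 4.3.3; TMM, quasi-likelihood test, two-sided, 12 residual degrees of freedom, common biological coefficient of variation 0.183). Calls had a Benjamini-Hochberg adjusted p under 0.05 over the 14690 tested genes. CPM used TMM-scaled library sizes; errors are SD over 4 replicates, or SE of log2 fold changes. The test was also run on counts simulated from its own fitted spread. Those counts held no trend with GC content or exon length and no replicate effect, so that run could not address these. Alternatives were total counts alone, RLE size factors, a mean of at least 5 CPM, no filter, DESeq2 1.42.0, limma-voom (limma 3.58.1), the compared groups fitted alone, replicate number as a block, per-library offsets for GC content and exon length (splines with 5 degrees of freedom; 99.37% of tested genes had both), and each library left out. A further alternative left out the library labelled I-BET762 replicate 2 and that labelled control replicate 2, against whose labels HEXIM1 went.

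The 38 members, the list of 56 other pathway genes, the marker lists and the alternatives were chosen with earlier results of these data known. Regulators and textbook targets are named whatever their result, other members where they passed the test, the rest by range, and up to 4 other pathway genes per comparison by smallest p. The core motif was searched as TGACNNNGC on both strands of RefSeq windows.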

Additional observations from a re-analysis of the deposited data

Results flagged for a closer look

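In 7 of 136 sets of 4 libraries (34 members in 4 groups) 1 library lay far from the other 3 of its group; chance alone marks about 1 set in 20 by this measure. Lactate replicate 1 did so for NFE2L2, at 165 CPM, and for AKR1C3, at 26.8 CPM, in both cases above the others. I-BET762 replicate 1 lay apart for SOD1, at 368 CPM (high), and for PRDX6, at 204 CPM (low). I-BET762 replicate 2 had the highest HMOX1 of its group, at 44.4 CPM, and control replicate 4 the highest SOD1, at 349 CPM. GSTP1 in replicate 3 of the cells given both treatments was low, at 67.9 CPM.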

How the results depend on the processing

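Lactate against control gave 10 members and between 10 and 14 with 1 library left out. Fitted on the compared groups alone it gave 5 (3 higher, 2 lower), and NQO1, TXNRD1, SQSTM1, UGDH and GPX4 then missed the threshold. I-BET762 against control gave 1 member; it gave 0 with total counts alone, limma-voom, the GC content and exon length correction, that correction with the replicate block, or with the library labelled I-BET762 replicate 2 and that labelled control replicate 2 left out, then 2 with no filter, 3 with DESeq2 and 3 with the groups alone, and 0 to 2 with 1 library left out. Both treatments against control gave 9, then 16 with the groups alone and 5 to 9 with 1 library left out, the 5 being without replicate 4 of both treatments. Both against lactate gave 0, and 1 with no filter. Both against I-BET762 gave 4, then 7 with DESeq2, 17 with the groups alone, 7 with the correction, 9 with the correction and the replicate block, and 3 to 4 with 1 library left out. The share of all tested genes called moved with the setting too, as the shares given above for both against I-BET762 show. Member counts that stand here without that share were not read as results about the members. The cause of the moves in these counts was not tested. The interaction gave 0 under each setting that could be run; with the groups alone it is the same fit. OSGIN1 with both against control turned to −0.53 (adjusted p = 0.0156) under the correction with the replicate block, from 0.14. Of 4418 single-gene alternatives, 4266 kept their side of the threshold, 81 gained a call, 70 lost it and 1 turned round; 193 more changed sign with no call on either side. GSR kept its call in all 19 alternatives of each of its 3 comparisons, and SQSTM1 and OSGIN1 in all 19 with both against I-BET762. Whether replicate numbers pair the libraries was not settled. Of 24 correlations between same-numbered libraries, with each gene centred within its group, 16 were over 0.1. They ran from −0.26 to 0.42. Of the 16 libraries, 2 correlated best with their own number in every other group. The main model held no term for replicate number. With the replicate block the counts were 13, 1, 11, 0, 4 and 0 for the 6 comparisons, in the order lactate against control, I-BET762 against control, both against control, both against lactate, both against I-BET762, and the interaction. The shares of all tested genes called with the block are not given beside them, so these counts were not read as results about the members. The members with the lowest counts among those tested were AKR1C1 (4 to 14 per library), ABCC1 (18 to 59) and ABCC2 (33 to 129).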
